A study of Mus musculus with 12 samples.

Results

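The step from medium D1 to medium B is the second medium change in the differentiation of adherent neural stem (ANS) cells. These were derived from normal mouse brain at E14.5 and can be driven towards GABAergic neurons. The step is described here by 7 of the 12 RNAseq libraries in the series, those on either side of it. These are 3 libraries at T1 (replicates 1, 2 and 3) and 4 at T2 (replicates 1 to 4). They were chosen by their labelled time point alone, and all libraries of the series are labelled wt. The other 5 libraries, 3 of proliferating cells (T0) and 2 of overtly differentiated cells (T3), appear only as levels set beside those of T1 and T2.

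At T0 the cells grew in Euromed-N with 1% N2, 20 ng/ml FGF2 and 20 ng/ml EGF. T1 cells had spent 2 days in medium D1, where N2 was cut to 0.5%, B27 added at 1%, FGF2 lowered to 10 ng/ml and EGF to 2 ng/ml, and their proliferation was labelled as much reduced. T2 cells had spent 2 days in medium B, a mix of DMEM/F12 and Neurobasal with the same N2, B27 and FGF2, 20 ng/ml BDNF and no EGF listed, and proliferation was labelled as absent. T3 cells had been in medium B for 10 days. These days are those of the labels. The paper's general differentiation protocol lists a longer time in medium D1, and in medium B a longer time than the T2 label. Between D1 and B the cells were also dissociated with Accutase and seeded again on laminin. The base medium, the loss of EGF, the addition of BDNF, laminin, replating and the days that passed all changed in the same step and cannot be told apart in these libraries. All libraries are labelled as ANS cells, and whether they come from 1 line is not stated. The paper calls the replicates biological and independent. The labels do not say how far the replicate cultures were kept apart. The p-values therefore measure only the spread between these samples, which may be in part technical.

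Neural stem cells in culture are held in division by EGF and FGF2. When these factors are lowered the cells leave the cell cycle, and neuronal precursors first build up microtubule proteins such as doublecortin and then the vesicle, scaffold and channel proteins of synapses and axons. BDNF acts on the receptor TrkB (Ntrk2), supports the survival of young neurons and promotes the maturation of GABAergic ones. Replating and a change of nutrients can also engage the integrated stress response, in which the transcription factor ATF4 switches on genes of amino acid supply and others such as Trib3, Chac1 and Atf3.

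Depth ran from 10118378 to 16631614 reads on genes in a library (median 11698240), and 17.6% to 24.1% of the uniquely aligned reads lay on no gene. T2 replicate 4 was the deepest of its group, with 16048942 reads against at most 10760862 in the others, and 16185 genes with a read. On the first principal component of the 7 libraries, which held 36% of the variance, the 3 T1 libraries lay on one side and the 4 T2 libraries on the other. The second held 25.7%. On it T1 replicates 1 and 2 and T2 replicate 2 lay at 12, 15.9 and 16. T1 replicate 3 and T2 replicates 3 and 4 lay at -8.77, -22.6 and -11.7, and T2 replicate 1 at -0.721. In bulk RNA, fewer cells of a kind and less RNA per cell cannot be told apart.

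Most of the genes that passed the threshold at the second medium change were higher at T2. Of 12382 genes tested with the quasi-likelihood test of edgeR, 71 were higher at T2 (0.573% of the genes tested) and 7 were lower (0.0565%) at a Benjamini-Hochberg adjusted p under 0.05, together 78 genes (0.63%). All 78 had groups that did not overlap. Over all genes tested, every T2 library was above every T1 library for 812 genes (6.56%) and below for 682 (5.51%), and an unadjusted p under 0.05 was reached by 920 genes that were higher and 524 that were lower. Over all genes the log2 fold change had a median of -0.004, and 48.9% lay above 0. In all 3 pairs of same-numbered libraries 2475 genes (20%) were higher at T2 and 2889 (23.3%) were lower. The 10 largest rises included the vesicle gene Rph3a, the adhesion genes Ctnna2 and Nfasc, and Trib3 and Atf3 of the integrated stress response.

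Libraries with the same replicate number deviated from their group means together, with correlations of 0.24, 0.39 and 0.18. The highest correlation, 0.42, was between T1 replicate 3 and T2 replicate 4, which differ in number. Pairing by number is therefore not settled, and fits with the replicate number as a block were read beside the first ones. In that fit 187 genes were higher (1.51%) and 59 lower (0.476%), and 66 of the 71 rises and 6 of the 7 falls were among them. T2 replicate 4 has no T1 partner and adds nothing to the difference in this fit. The block takes extra terms, so that it leaves fewer residual degrees of freedom than the 5 of the first fit. Its adjusted p-values therefore rest on a less certain spread. The number of calls depended on single libraries. Without T1 replicate 1 only 9 genes were higher and 0 lower (738 and 346 at an unadjusted p under 0.05), without T2 replicate 1 18 and 0, without T2 replicate 4 33 and 0, without T1 replicate 3 39 and 3, and without T1 replicate 2 58 and 2. When all 12 libraries shared 1 estimate of the spread, 3 genes were higher and 0 lower (518 and 196 at an unadjusted p under 0.05), and DESeq2 gave 231 and 70. The 3 genes were Rph3a, Ctnna2 and Nfasc. Rph3a, Tmem132b, Ctnna2, Nfasc and Dpp6 passed in all 7 fits that left out 1 library. Phactr3, Trib3, Mapt and Syp failed without T1 replicate 1, with adjusted p of 0.064, 0.058, 0.064 and 0.077, and in no other of these 7 fits. When all 12 libraries shared 1 estimate, these genes, Tmem132b and Dpp6 failed too. In that edgeR fit the adjusted p was 0.051 for Tmem132b, 0.3 for Dpp6 and 0.11 for Trib3. For the 21 other called genes that the naming rule gave, the call was lost when at least 2 different libraries were left out, so their adjusted p is given with its range over the alternatives.

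**Figure D1:**
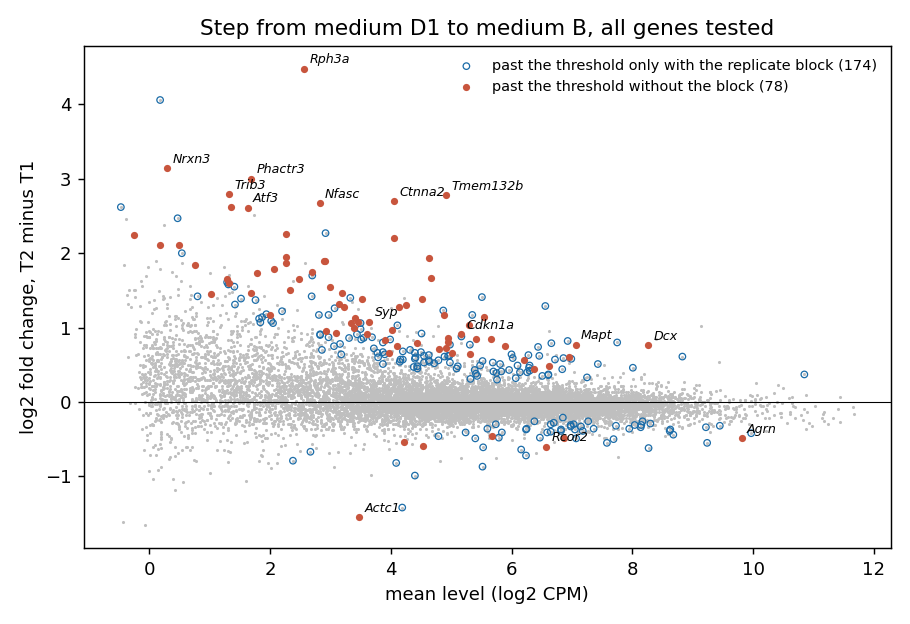
The log2 fold change from T1 to T2 (vertical axis) is plotted against the mean level in log2 CPM (horizontal axis) for the 12382 genes tested. Filled points are the 78 genes past the threshold without the replicate block and open circles the 174 that passed only with it, and nearly all of the filled points lie above 0.

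The gene with the largest rise was Rph3a, which encodes rabphilin, an effector of Rab3 on synaptic vesicles (chromosome 5, 121390511 to 121459527, minus strand, mm9). It measured 0.257, 0.904 and 0.182 CPM (reads scaled to library size) in T1 replicates 1, 2 and 3, from 3, 12 and 3 reads, and 8.4, 13.8, 8.5 and 9.2 CPM in T2 replicates 1 to 4. The lowest T2 library was far above the highest T1 library. The log2 fold change was 4.48 ± 0.41 (SE), or 22.4-fold, with an adjusted p of 0.0027. Without T1 replicate 2, which held 12 of its T1 reads, the log2 fold change was 5.48, so that the size of the fold is loose. Levels were 0.121 ± 0.113 CPM at T0 (SD, n = 3) and 29.2 ± 10.7 CPM at T3 (n = 2).

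Ctnna2 and Nfasc encode αN-catenin, which ties cadherins to actin, and neurofascin, an adhesion molecule of the axon initial segment and the node. Ctnna2 (chromosome 6, 76831631 to 77929693) measured 3.69, 5.57 and 2.86 CPM in the 3 T1 libraries and 28.3, 23.1, 28.1 and 24.7 CPM in the 4 T2 libraries. Its log2 fold change was 2.70 ± 0.20, with an adjusted p of 0.0016. Nfasc (chromosome 1, 134461268 to 134638374) went from 1.12, 1.81 and 2.13 CPM to 12.5, 11.2, 8.77 and 11.4 CPM, a log2 fold change of 2.67 ± 0.23 with an adjusted p of 0.002. For neither gene did the groups overlap. Mean levels at T0 and T3 were 0.667 and 64.3 CPM for Ctnna2 and 0.337 and 126 CPM for Nfasc, so that the T2 level of Nfasc lay far under its level after 10 days.

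Tmem132b, a membrane protein gene, stood at 0.0747, 0.0692 and 0.0706 CPM in the T0 libraries and at 5.32, 11.1 and 4.32 CPM at T1. At T2 it measured 43.5, 51.2, 42 and 52 CPM, a log2 fold change of 2.78 ± 0.27 (adjusted p = 0.0032). Its 2 T3 libraries, at 93 and 28.8 CPM, lay on either side of the T2 values. Dpp6, an auxiliary subunit of A-type potassium channels, measured 2.66, 6.55 and 6.75 CPM at T1 and 20.7, 25, 22.4 and 31.5 CPM at T2 (log2 fold change 2.21 ± 0.27, adjusted p = 0.011). Phactr3, a regulator of protein phosphatase 1 and actin, rose from 0.647 ± 0.204 CPM (SD, n = 3) to 5.15 ± 1.55 CPM (n = 4), a log2 fold change of 3.00 ± 0.35 (adjusted p = 0.0086). Both remaining genes of this group were less firm. Rnf43, an E3 ligase that removes Frizzled receptors from the cell surface, measured 1.37, 2.56 and 0.608 CPM at T1 and 6.3 to 7.97 CPM at T2 (log2 fold change 2.26 ± 0.36, adjusted p = 0.027, 2.6e-07 to 0.16 over the alternatives), and without T1 replicate 2 the log2 fold change was 2.90. Darc, an atypical chemokine receptor, rested on 2, 6 and 18 reads at T1 and on 25, 44, 38 and 83 reads at T2 (log2 fold change 2.62 ± 0.45, adjusted p = 0.04, 1.7e-05 to 0.18), and without T1 replicate 3 the log2 fold change was 3.55. Darc (chromosome 1, 175262017 to 175263634) lies next to Cadm3 (175264385 to 175297826) on the same strand. Cadm3 had more reads and rose as well (1.39 ± 0.19, adjusted p = 0.016). Whether the rises of Darc and Cadm3 are linked was not tested.

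**Figure D2:**
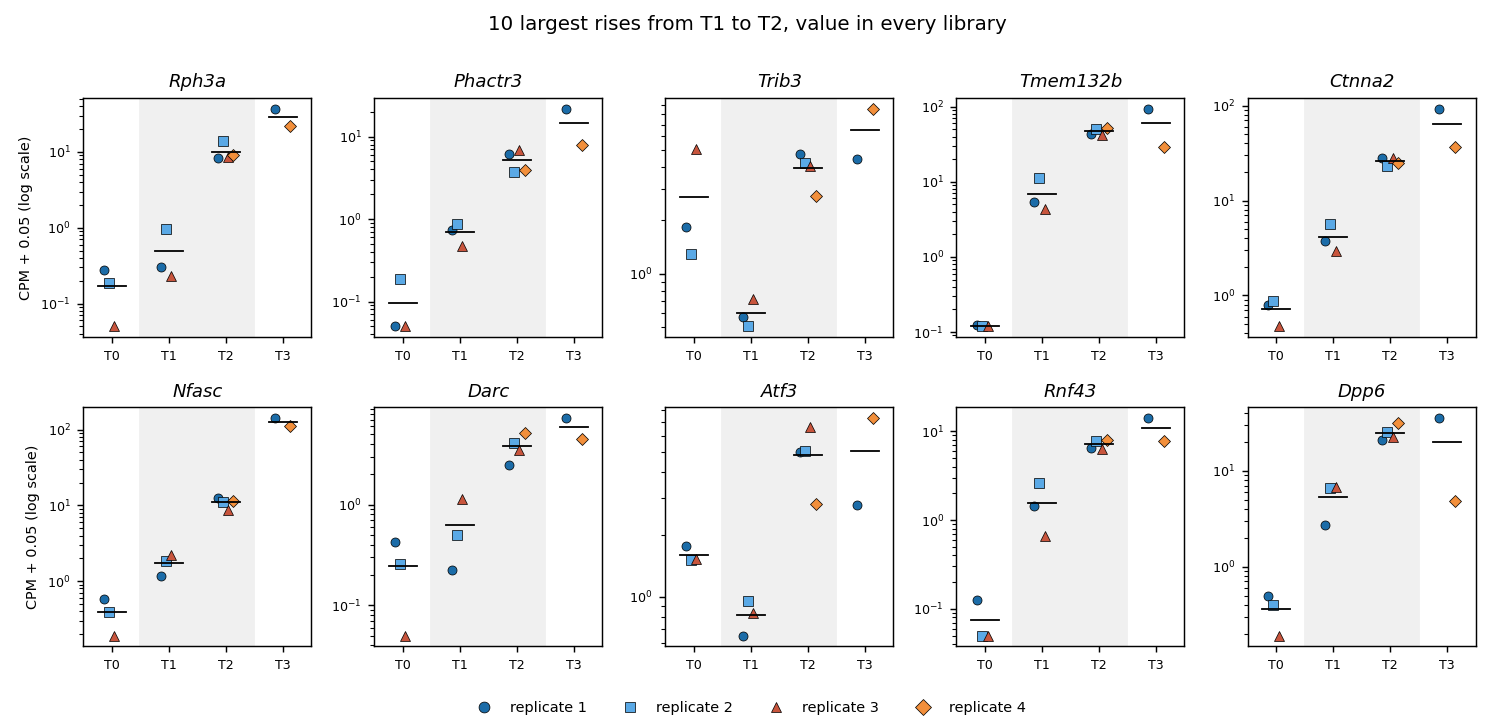
The value of each of the 10 genes with the largest rises is shown in all 12 libraries (CPM + 0.05, log scale) by time point, with marker shape and colour for the replicate number, a line at the group mean and the T1 to T2 step shaded. In every panel the 4 T2 points lie above the 3 T1 points, while Trib3 and Atf3 alone have T0 points above all T1 points.

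Of the 31 genes of the presynaptic machinery that could be tested, 5 rose and 0 fell, where 0.573% of all genes rose, and the median log2 fold change was 0.16. The risers were Rph3a, Nrxn3, Syp, Sv2a and Cplx1. Over the alternative fits 1 to 6 members rose. The summed level of the list was 3180, 3450 and 3200 CPM at T1 and 3090, 3350, 3350 and 3340 CPM at T2. Nrxn3, a neurexin (chromosome 12, 89961320 to 91573375), had 1, 6 and 1 reads at T1 and 20, 22, 11 and 34 at T2, or 0.0858, 0.452 and 0.0608 CPM against 1.93, 2.04, 1.01 and 2.09 CPM. Its log2 fold change was 3.14 ± 0.55 with an adjusted p of 0.042 (0.00065 to 0.23 over the alternatives), and it had 0 reads in all T0 libraries and 9.06 CPM at T3. The size of this fold is loose, since the T1 level rests on so few reads, and without T1 replicate 2 the log2 fold change was 4.46.

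Synaptophysin (Syp), a protein of the vesicle membrane, measured 7.98, 7.76 and 6.93 CPM at T1 and 15.1, 13.7, 17.9 and 16.8 CPM at T2, a log2 fold change of 1.08 ± 0.14 with an adjusted p of 0.011. The T0 mean of Syp was 6.73 CPM, near that of T1. Of the exon bases of Syp, 16.8% are shared with Gm14703 on the other strand, and without a stated strand setting reads there cannot be assigned. Sv2a, a vesicle glycoprotein, went from 5.75, 6.48 and 4.62 CPM to 10.4, 10.2, 12.2 and 9.69 CPM (log2 fold change 0.93 ± 0.16, adjusted p = 0.04, 0.00032 to 0.38). The T0 libraries of Sv2a stood at 12.8, 12.4 and 6.42 CPM. Cplx1, a complexin that clamps vesicle fusion, fell outside the naming rule as the smallest of the 5 and is given because the count is small. It measured 24.3, 30.8 and 31.8 CPM at T1 and 49.8 to 55.2 CPM at T2 (log2 fold change 0.85 ± 0.10, adjusted p = 0.011). Well-known members were among those that did not pass. Vamp2, Rab3a and Nrxn2 had log2 fold changes from -0.05 to 0.07. Sv2c lay at -0.87 with an adjusted p of 0.1, and passed as lower only with the replicate block (0.049).

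On the postsynaptic side 3 of 30 genes of scaffolds and adhesion rose and 0 fell (median 0.13), where 0.573% of all genes rose. Dlgap1, a scaffold that binds PSD-95, measured 0.944, 1.43 and 0.791 CPM at T1 and 3.86, 3.53, 2.38 and 3.37 CPM at T2 (log2 fold change 1.65 ± 0.29, adjusted p = 0.04, 0.00095 to 0.4). Shank2, which joins such scaffolds to actin, went from 6.26, 6.78 and 6.81 CPM to 13.6, 15.8, 12 and 11.6 CPM (1.00 ± 0.15, adjusted p = 0.023, 1.1e-05 to 0.23). Shisa9, an auxiliary protein of AMPA receptors with 0 reads in all T0 libraries, measured 3.86, 6.7 and 3.16 CPM and then 10.6 to 14.6 CPM (1.46 ± 0.25, adjusted p = 0.036, 5.2e-06 to 0.35, and 0.051 with the replicate block). Camk2a, the kinase of the postsynaptic density, did not pass. It stood at 4.29 CPM at T0, 372 ± 46.6 CPM at T1 and 287 ± 36.1 CPM at T2 (log2 fold change -0.37 ± 0.12, adjusted p = 0.24).

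Among the 21 tested receptor genes for glutamate and GABA, 18 lay above 0 (median 0.22). The AMPA receptor subunits Gria2 and Gria3 rose with the replicate block, with adjusted p of 0.042 and 0.026 against 0.43 and 0.071 without it. A further 23 of the 44 receptor genes listed were too low to test, 17 of the 44 with at most 3 reads in every T1 and T2 library, among them Gria1, Grin2a and Grin2b.

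Voltage-gated channels had 1 of 44 tested genes higher and 0 lower (median 0.30, 37 above 0), and 4 higher with the block. Over all genes 0.573% were higher without the block and 1.51% with it. Scn3b, the β3 subunit of sodium channels, went from 11.5, 11.3 and 12.2 CPM to 16.5, 17.7, 20.9 and 18.4 CPM (0.66 ± 0.12, adjusted p = 0.042, 0.00086 to 1). The sodium channels Scn1a, Scn3a and Scn8a passed with the block alone, at adjusted p of 0.042, 0.013 and 0.0056 against 0.28, 0.084 and 0.085. Scn8a and the ankyrin gene Ank3, an anchor of sodium channels and of neurofascin that is on no list and was picked after its value was seen, had log2 fold changes of 0.82 and 0.88. The authors' FPKM values of Scn8a did not rise, at 3.1 ± 0.376 (SD) at T1 and 2.88 ± 0.701 at T2. Why the 2 measures differ was not tested. For Ank3 the adjusted p was 0.0081 with the block and 0.071 without.

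**Figure D3:**
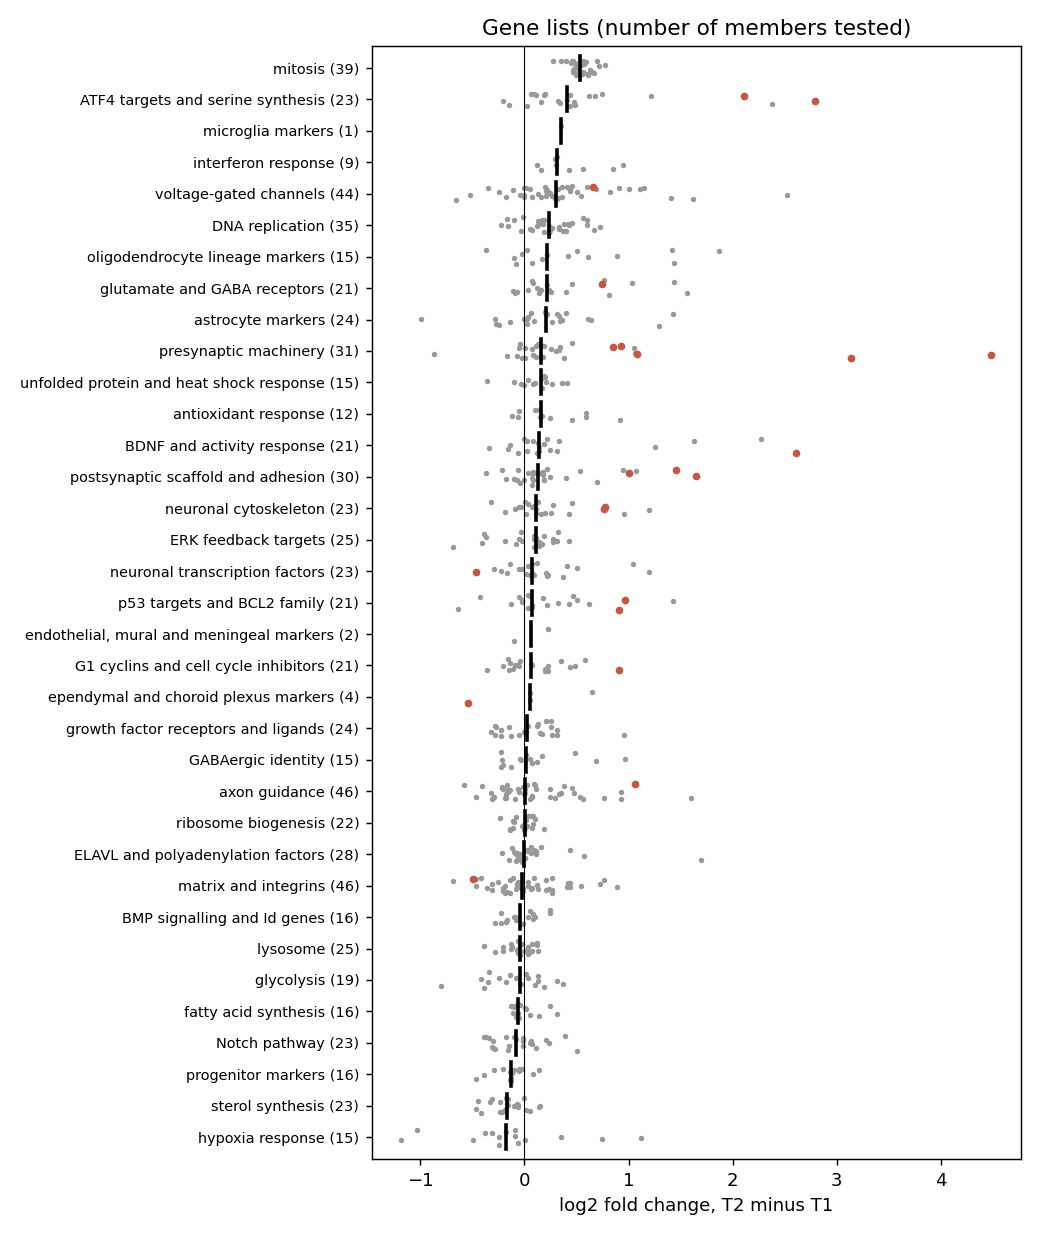
Each point is the log2 fold change from T1 to T2 of 1 tested gene on 1 of the 35 lists, ordered by the list median (black bar), and filled points in red are the members past the threshold without the block. The mitosis list has the highest median, 0.53, with every member above 0 and no member past the threshold, while the presynaptic list has the most members past it, 5.

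Of 23 tested genes of the neuronal cytoskeleton, the microtubule proteins of young neurons among them, 2 rose and 0 fell, where 0.573% of all genes rose. The median was 0.11, and 18 of the 23 lay above 0. Mapt, which encodes tau (chromosome 11, 104092704 to 104193404), measured 90.3, 101 and 92.3 CPM at T1 and 176, 146, 166 and 156 CPM at T2. Its log2 fold change was 0.77 ± 0.08 with an adjusted p of 0.0065. The call was lost without T1 replicate 1 and when all 12 libraries shared 1 estimate of the spread. Dcx, which encodes doublecortin, had already gone from a mean of 5.54 CPM at T0 to 200, 248 and 207 CPM at T1, and stood at 382, 421, 379 and 295 CPM at T2 (0.76 ± 0.13, adjusted p = 0.036, 7e-06 to 0.88).

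Tubb3 and Mtap2, the tubulin and the microtubule-associated protein most used as neuronal markers, did not pass. Tubb3 measured 149, 153 and 164 CPM at T1 and 123, 126, 173 and 120 CPM at T2 (log2 fold change -0.19 ± 0.12, adjusted p = 0.6). Mtap2 had means of 1900 and 1780 CPM (-0.09 ± 0.12, adjusted p = 0.82). Elavl3, a neuronal RNA-binding protein, lay at 9.3 to 13.5 CPM at T1 and 14.8 to 18.3 CPM at T2. The groups did not overlap, yet the adjusted p was 0.14 (log2 fold change 0.57 ± 0.15), and 0.07 with the block.

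The GABAergic enzyme Gad1 measured 35.3, 40.4 and 32.7 CPM at T1 and 56.4, 54.2, 44 and 47.5 CPM at T2, against 2.67 CPM at T0. Again the groups did not overlap. The log2 fold change was 0.49 ± 0.11, with an adjusted p of 0.094 without the block and 0.032 with it. Gad1 was the only gene of the 15 tested on the GABAergic list to pass in either fit (median 0.02), and without the block 0 passed, with 1 higher and 2 lower at an unadjusted p under 0.05 and 1 higher by DESeq2. The GABAergic list summed to 2250 to 2350 CPM at T1 and 2190 to 2570 CPM at T2. Of its 32 genes 14 had at most 3 reads in every T1 and T2 library. Among these, Gad2 had at most 1 read in any T1 or T2 library and Slc32a1, the vesicular GABA transporter, had 0. Dlx2, Dlx5 and Dlx6 had at most 2, and Sst, Npy, Pvalb and Vip at most 3. Some other neuronal genes were low as well, with at most 1 read for Stmn2, 0 for Nefm, 14 for Syt1 and 15 for Gap43, while the cytoskeleton list with Mtap2, Dcx, Tubb3 and Mapt summed to 5880 to 6480 CPM at T1 and 5780 to 6500 CPM at T2.

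Transcription factors of the neuronal lineage had 0 of 23 higher and 1 lower (median 0.07), where 0.0565% of all genes were lower. The one that fell was Pou3f4, a POU homeodomain factor, from 59.9, 62.1 and 59.6 CPM to 44.3, 48, 39.7 and 43.1 CPM (-0.46 ± 0.08, adjusted p = 0.04, 0.00023 to 0.69). Axon guidance had 1 of 46 higher and 0 lower (median 0.01), where 0.573% of all genes were higher. Its riser was Sema6b, a transmembrane semaphorin, from 5.58, 7.38 and 5.72 CPM to 11.8, 13.1, 14.7 and 12.1 CPM (1.06 ± 0.15, adjusted p = 0.023, 2.6e-06 to 0.48). None of the 28 tested genes of the ELAVL family and of polyadenylation passed (median 0, with 2 higher and 0 lower at an unadjusted p under 0.05 and 2 higher by DESeq2).

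No mitotic gene fell further at the step. All 39 genes of the mitosis list were tested and all 39 had a log2 fold change above 0, from 0.28 to 0.77 with a median of 0.53, against 48.9% of all genes above 0. Without the block 0 of them passed (6 higher and 0 lower at an unadjusted p under 0.05, and 0 by DESeq2). With the block 12 were higher and 0 lower, where 1.51% of all genes were higher. In the list 37 of 39 genes were higher at T2 in all 3 same-numbered pairs, against 20% of all genes (23.3% were lower in all 3). The pair medians were 0.46, 0.78 and 0.61. Without pair 1 the blocked fit called 0 of all genes higher and 0 lower.

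The summed level of the list was 738, 508 and 333 CPM in T1 replicates 1, 2 and 3 and 1000, 920, 501 and 625 CPM in T2 replicates 1 to 4, so that the groups overlapped while each T2 library was above the T1 library of its number. Both T3 libraries were higher again, at 1470 and 3120 CPM, and the T0 libraries stood at 5260 to 8890 CPM. Mki67, the proliferation marker, measured 84.3, 54 and 31.4 CPM at T1 and 95.9, 114, 44.4 and 56.9 CPM at T2 (log2 fold change 0.47 ± 0.36, adjusted p = 0.68, and 0.1 with the block). Among the genes that passed with the block were cyclin A2 (Ccna2, 0.61, adjusted p = 0.015 against 0.44 without it), Cdk1 (0.48, 0.044 against 0.59) and topoisomerase Top2a (0.55, 0.048 against 0.6). Proliferation was labelled as absent at T2, where the summed level was at most 1000 CPM against at least 5260 CPM at T0.

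The genes of DNA replication moved less. None of 35 passed without the block or with it (4 higher and 0 lower at an unadjusted p under 0.05, 0 by DESeq2), the median was 0.24, and the pair medians were 0.25, 0.49 and 0. On the list of G1 cyclins and inhibitors 1 of 21 rose, with a median of 0.06, and 3 rose with the block. Over all genes 0.573% rose without the block and 1.51% with it. The riser was Cdkn1a, which encodes the inhibitor p21 and is a target of p53. It measured 19.1, 29.6 and 22.3 CPM at T1 and 49.5, 43.1, 41.7 and 43 CPM at T2 (0.91 ± 0.14, adjusted p = 0.027, 2.6e-06 to 0.65). The T0 libraries of Cdkn1a stood at 35.7, 34.8 and 60.4 CPM. Cyclins D1 and D2, which drive entry into the cycle, passed beside it with the block (Ccnd1 0.35, adjusted p = 0.029 against 0.27, and Ccnd2 0.58, 0.028 against 0.4).

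Trib3, Chac1 and Atf3 rose between the 2 media. Of 23 genes of ATF4 targets and serine synthesis 2 rose and 0 fell (0.573% of all genes rose), with a median of 0.41. With the block 7 rose, where 1.51% of all genes did. Trib3, a pseudokinase that feeds back on ATF4, measured 0.515, 0.452 and 0.669 CPM at T1 and 4.73, 4.18, 4.02 and 2.7 CPM at T2, from 6, 6 and 11 and from 44 to 49 reads. The log2 fold change was 2.79 ± 0.31 with an adjusted p of 0.0065. Chac1, which breaks down glutathione, had 6, 8 and 4 reads at T1 and 17, 22, 26 and 27 at T2, a log2 fold change of 2.11 ± 0.35 with an adjusted p of 0.036 (0.0025 to 0.16 over the alternatives).

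Atf3, a stress-induced transcription factor that also answers neuronal activity, measured 0.601, 0.904 and 0.791 CPM at T1 and 4.93, 5.01, 6.58 and 2.76 CPM at T2 (2.61 ± 0.35, adjusted p = 0.016, 7.4e-08 to 0.12). For all 3 genes every T2 library was above every T1 library. Of the 23 genes on the list 21 lay above 0, with 11 higher and 1 lower at an unadjusted p under 0.05 and 7 higher by DESeq2. Atf4 itself lay at 0.19 (adjusted p = 0.44), asparagine synthetase (Asns) at 0.16 (0.56) and the serine synthesis genes Psat1 and Phgdh, the 2 members below 0, at -0.20 and -0.15 (0.3 and 0.77). The genes that the block added were Mthfd2, Aldh1l2, Slc7a3, Sesn2 and Atf5, with log2 fold changes from 0.41 to 1.22 and adjusted p from 0.018 to 0.044 against 0.061 to 0.19.

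Since 3 known ATF4 targets rose, the promoters of these genes are shown around the letters TGATGNAA, the core of the composite site that ATF4 and C/EBP proteins share. The motif was chosen after the values were seen. Windows of 250 bases before to 50 after each start, from RefSeq on GRCm38.p6, were searched on both strands. Each stretch is printed 5′ to 3′ on the strand of its gene, with the match in capitals, which here is always the reverse complement of the motif.
Trib3, chr2:152344028-152344057, minus strand: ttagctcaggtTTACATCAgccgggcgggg
Chac1, chr2:119351038-119351067, plus strand: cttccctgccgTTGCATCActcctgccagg
Atf3, chr1:191183425-191183454, minus strand: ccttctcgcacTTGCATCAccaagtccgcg
The match begins at base 15 after the start in Trib3, 193 bases before it in Chac1 and 110 bases before it in Atf3. The letters were found in 1303 of 32841 windows (3.97%) and for 1218 of 27018 genes (4.51%). Of the 71 genes that rose, 50 had a window and 6 of these (12%) held a match, which were Trib3, Chac1, Atf3, Hrk, Gcom1 and Gm15708. For the 7 genes that fell the count was 0 of 7, and for the tested genes of the ATF4 list it was 8 of 19 (42.1%). Trib3, Chac1 and Atf3 led to the choice of the motif and are 3 of the 6, so that the 12% is no test. The ATF4 list holds known targets of ATF4, Trib3 and Chac1 among them, so that its share is no test either. The letters TGACGTCA of the cAMP response element were in 2.03% of genes and in 0 of the 50. A match is a run of letters and not a measured site.

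Among p53 targets and the BCL2 family 2 of 21 rose and 0 fell (median 0.07), and 4 rose and 1 fell with the block. Over all genes 0.573% rose without the block. With it 1.51% rose and 0.476% fell. Beside Cdkn1a the riser was Hrk, a BH3-only protein that promotes apoptosis in neurons, from 9.52, 10 and 11.4 CPM to 15.6, 24, 16.9 and 24.2 CPM (0.97 ± 0.18, adjusted p = 0.05 after rounding, 0.00021 to 0.24). The member that fell with the block was another BH3-only gene, Bcl2l11 (-0.64, adjusted p = 0.015 against 0.055). Of 12 antioxidant genes 0 passed and 3 rose with the block, Hmox1, Srxn1 and Gstm1 (5 higher and 0 lower at an unadjusted p under 0.05, 3 higher by DESeq2). Of 15 genes of the unfolded protein and heat shock response 0 passed in either fit (2 higher at an unadjusted p under 0.05, 1 by DESeq2). The 9 interferon genes tested all lay above 0 (median 0.31, 6 with an unadjusted p under 0.05), and 0 passed in either fit or by DESeq2.

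Receptors and targets of EGF and BDNF were then compared, since both factors differ between the media. The receptor Egfr measured 1720, 1970 and 1720 CPM at T1 and 1460, 1970, 1090 and 1650 CPM at T2 (-0.22 ± 0.17, adjusted p = 0.67). Feedback targets of ERK, which EGF and FGF2 induce, had 0 of 25 past the threshold in either fit (median 0.11, 2 higher and 3 lower at an unadjusted p under 0.05, 0 higher and 1 lower by DESeq2). Ntrk2, the receptor of BDNF, lay at 1070, 1010 and 889 CPM and then at 765, 818, 1050 and 889 CPM (-0.16 ± 0.12, adjusted p = 0.67), and Bdnf itself at 25.7 ± 3.3 and 27.7 ± 3.02 CPM (0.12 ± 0.12, adjusted p = 0.77). On the list of BDNF and activity response 1 of 21 tested genes rose, Atf3, and 0 fell (median 0.14), where 0.573% of all genes rose. With the block the granin gene Scg2 passed as well (2.27, adjusted p = 0.044 against 0.086). The immediate early gene Arc had 0 reads in all T1 and T2 libraries. Of 24 growth factor receptors and ligands 0 passed in either fit (2 higher and 1 lower at an unadjusted p under 0.05, 0 by DESeq2).

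The 7 genes that were lower had no list in common, and 6 of them had a log2 fold change between -0.60 and -0.46. Actc1, which encodes cardiac α-actin, had the largest fall, from 21.4, 19.4 and 11.8 CPM to 7.05, 6.78, 5.57 and 4.54 CPM (-1.55 ± 0.23, adjusted p = 0.023, 1.1e-07 to 0.48). Its means at T0 and T3 were 3.53 and 2.01 CPM, so that T1 was its highest time point. Agrn, which encodes the proteoglycan agrin, was the most abundant, at 1040, 1060 and 1120 CPM and then 718, 789, 777 and 765 CPM (-0.49 ± 0.08, adjusted p = 0.03, 8.2e-10 to 0.77). It was the only gene past the threshold among 46 of matrix and integrins (0 higher, 1 lower, median -0.02), where 0.0565% of all genes were lower.

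Rnd3, a small GTP-binding protein that loosens actin fibres, went from 134, 137 and 146 CPM to 87.5, 104, 99.7 and 103 CPM (-0.49 ± 0.08, adjusted p = 0.03, 1.8e-05 to 0.18). Rcor2, a corepressor of the CoREST family that works with the demethylase LSD1, went from 103, 113 and 135 CPM to 78.5, 72, 87.5 and 71.6 CPM (-0.60 ± 0.11, adjusted p = 0.047, 0.00029 to 0.15), and it was higher still at T0, with 146 CPM. Ccdc39, a protein of the ciliary axoneme, and Catsper2, a subunit of the cation channel of sperm, were close to each other in size. Ccdc39 fell from 21.8 to 23.3 CPM at T1 to 14.1 to 16.3 CPM at T2 (-0.54 ± 0.10, adjusted p = 0.048, 0.0015 to 0.36, and 0.067 with the block). Of its exon bases 17.5% are shared with Ttc14 on the other strand. Catsper2 went from 26.5 to 29.3 CPM to 16.9 to 19.6 CPM (-0.59 ± 0.09, adjusted p = 0.029, 0.00012 to 0.9). For these 7 genes and all others called, no T2 library lay among those of T1.

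**Figure D4:**
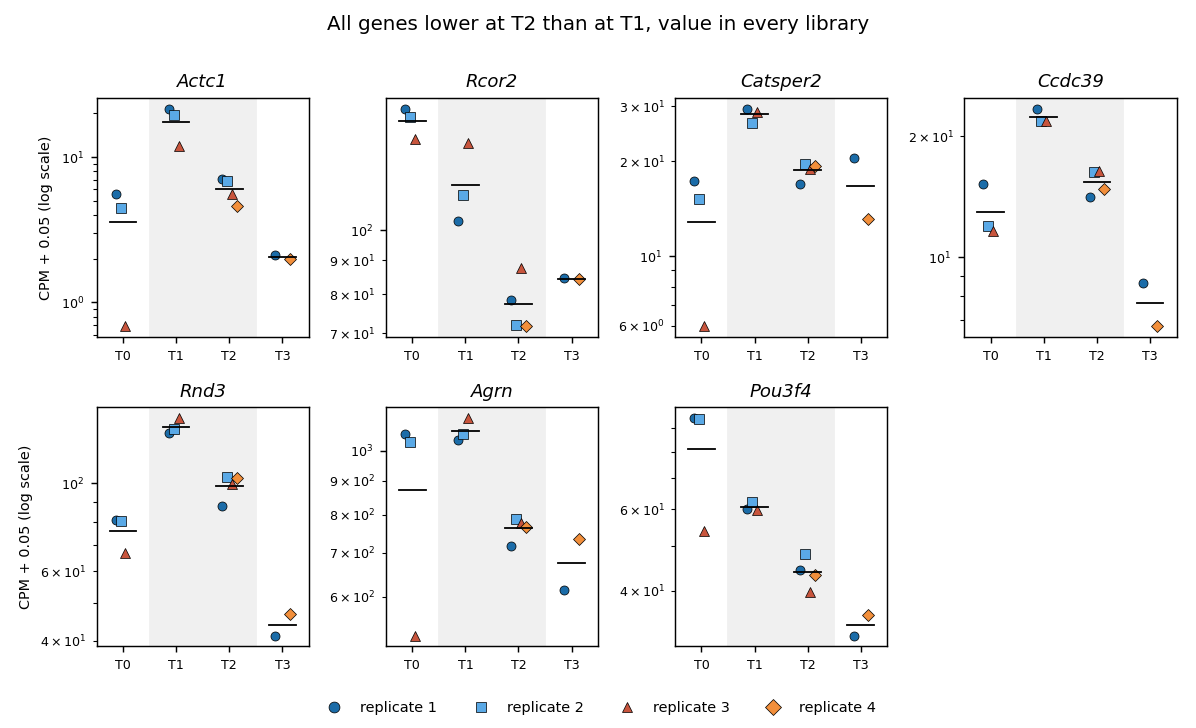
The 7 genes that were lower at T2 are shown in all 12 libraries (CPM + 0.05, log scale), drawn as in the plot of the largest rises. In each panel the 4 T2 points lie below the 3 T1 points, and for Actc1, Rnd3, Catsper2 and Ccdc39 the T1 libraries are the highest of the series.

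Nes and Sox2, markers of neural progenitors, did not pass. Nes measured 1340, 1360 and 1410 CPM at T1 and 1030, 1160, 1020 and 977 CPM at T2, groups that did not overlap (-0.39 ± 0.09, adjusted p = 0.093, 0.00022 to 1 over the alternatives). Sox2 had means of 431 and 389 CPM (-0.14 ± 0.11, adjusted p = 0.67). Of 16 progenitor markers 14 lay below 0 (median -0.13), and 0 passed in either fit (0 higher and 2 lower at an unadjusted p under 0.05, 1 lower by DESeq2). In the Notch pathway 0 of 23 passed (median -0.08, 0 higher and 5 lower at an unadjusted p under 0.05, 2 lower by DESeq2), and the ligand Dll1 and the effector Hes1 fell with the block (-0.39 and -0.30, adjusted p = 0.04 and 0.043 against 0.071 and 0.24). Hes5, another Notch effector, lay at -0.08 ± 0.23 (adjusted p = 0.93). Of 16 BMP and Id genes 0 passed in either fit (0 higher and 1 lower at an unadjusted p under 0.05, 0 by DESeq2).

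Gfap, the astrocyte filament gene, measured 37.2, 48.4 and 68.5 CPM at T1 and 121, 72.5, 200 and 108 CPM at T2. The groups did not overlap and the log2 fold change was 1.29 ± 0.32, with an adjusted p of 0.12 without the block and 0.028 with it. The astrocyte list as a whole had 0 of 24 genes past the threshold (median 0.21, 6 higher and 1 lower at an unadjusted p under 0.05, 2 higher and 1 lower by DESeq2). With the block Gfap and the glutamate transporter Slc1a2 rose (0.61, adjusted p = 0.032 against 0.19) while Aldh1l1 fell (-0.99, 0.047 against 0.21). Summed levels of the astrocyte list were 7800 to 8740 CPM at T1 and 6720 to 9710 CPM at T2, and its part in the synaptic and stress genes was not tested. Markers of the oligodendrocyte lineage had 0 of 15 past the threshold (median 0.22, 6 higher and 1 lower at an unadjusted p under 0.05, 0 higher and 1 lower by DESeq2), and 14 of the 29 listed were too low to test, Sox10, Mbp, Mag and Mobp among them. With the block 1 rose and 1 fell, Mog and Cnp (1.42 and -0.37, adjusted p = 0.042 and 0.028 against 0.15 and 0.14).

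Other cell types were nearly absent. The 13 microglia markers summed to 3.77 to 5.58 CPM at T1 and 5.11 to 7.05 CPM at T2, with 0 reads for Itgam, C1qa, Trem2 and Tyrobp, and the 17 endothelial, mural and meningeal markers to 5.5 to 6.57 and 7.24 to 7.4 CPM. Ependymal and choroid plexus markers summed to 54.3 to 66.2 and 51.3 to 64 CPM. Of the 4 that could be tested 1 was lower, Ccdc39, where 0.0565% of all genes were lower.

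Sterol synthesis had 0 of 23 genes past the threshold (0 higher and 2 lower at an unadjusted p under 0.05, 0 by DESeq2), with a median of -0.17 and 13 genes lower in all 3 pairs, against 23.3% of all genes. Hmgcs1 had 0 reads in all T1 and T2 libraries, and the deposited table places this gene on an unplaced part of chromosome 13, so its 0 is not read as a level. Fatty acid synthesis (0 of 16, median -0.06, 1 higher at an unadjusted p under 0.05), glycolysis (0 of 19, median -0.04, 1 higher and 1 lower), the hypoxia response (0 of 15, median -0.18, 1 higher and 3 lower) and ribosome biogenesis (0 of 22, median 0.01, 0 higher and 0 lower) had no gene past the threshold in either fit or by DESeq2. Lysosomal genes had 0 of 25 past it (median -0.04, 0 higher and 4 lower at an unadjusted p under 0.05, 0 by DESeq2), and the hydrolase genes Ctsa and Hexa fell with the block (-0.28 and -0.39, adjusted p = 0.032 and 0.028 against 0.27 and 0.2).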

How the data were processed

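RNA of ANS cells was sequenced by the authors (polyA RNA, TruSeq kit, HiScanSQ) and aligned to mm9. Their processing notes name CASAVA 1.8, TopHat2 2.0.6, Bowtie 0.12.7.0, HTSeq 0.6.0 and DESeq2 1.0.0. They deposited raw counts per gene for each library, with 22609 genes. The 5 closing entries of each file, which hold reads on no gene, were dropped. The strand setting of the counting is not given in the sources used here. The authors also deposited FPKM values over 34993 gene identifiers, with a tool that is not given in the sources used here. These were used only to check genes with few reads and positions, and are given for Scn8a.

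The 3 T1 and 4 T2 libraries were fitted without T0 and T3, so that their spread did not enter. Counts were normalized by TMM, low genes were removed with filterByExpr, and edgeR 4.0.16 in R 4.3.3 was used with its quasi-likelihood test (Benjamini-Hochberg adjusted p under 0.05 over all genes). This left 5 residual degrees of freedom, and the fits with the replicate block had fewer. Alternatives were DESeq2 1.42.0, another normalization, other filters, all 12 libraries, the replicate block, a term for libraries numbered 3 or 4, libraries 1 and 2 only, and fits without each library. CPM were scaled by TMM over all 12 libraries, and ± is SD for levels and SE for log2 fold changes. Replicates of a group differed by more than sampling noise (chi-square per gene of 5.34 to 23.6). Deviations from the group mean correlated at 0.24, 0.39 and 0.18 between libraries numbered 1, 2 and 3. The replicate block takes libraries of the same number as pairs. The highest correlation of a T1 library with one of another number was 0.42 (T1 replicate 3 and T2 replicate 4). Pairing by number is therefore not settled.

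Genes named are the 10 largest called changes in each direction (mean log2 CPM not under 1, no overlap between the groups), the members of 35 gene lists past the threshold (at most 4 in each direction a list), 14 fixed genes and defining markers at or near 0 reads. Other names were chosen after their values were seen, or illustrate a list. The comparison, the lists and the tests were chosen with earlier results of these data known. Results on some genes are not reported here. The fits were tested on simulated data. Gene positions are those of GENCODE vM1 on NCBIM37 (mm9).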

Additional observations from a re-analysis of the deposited data

Results flagged for a closer look

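Among the 47 sets of 4 T2 values that were examined (43 named genes and 4 library measures), 5 held a library far from the other 3. Chance alone picks about 1 in 20 such sets. Groups of 3, T1 among them, were not examined.

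Rph3a stood at 13.8 CPM in T2 replicate 2 against 8.4 to 9.2 CPM in the others, and without that library its log2 fold change was 4.29 (adjusted p = 0.0044). Nrxn3 was low in T2 replicate 3, at 1.01 CPM against 1.93 to 2.09 CPM, and Tubb3 was high there, at 173 CPM against 120 to 126 CPM. T2 replicate 4 had 16048942 reads on genes against 10118378 to 10760862. The 10 most abundant genes took 2.54% of the reads in T2 replicate 1 against 2.67% to 2.69%. What set these libraries apart was not tested.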

How the results depend on the processing

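The number of genes past the threshold depended on the fit. Against 71 higher and 7 lower, DESeq2 gave 231 and 70, no filter on low counts 136 and 25, a term for libraries numbered 3 or 4 288 and 89, libraries 1 and 2 only 92 and 18, all 12 libraries in 1 fit 3 and 0, another normalization (RLE) 75 and 7, and at least 10 reads in every library 66 and 5. Leaving out 1 library gave 9 to 59 higher and 0 to 9 lower. The fit with the replicate block, read with the pairing of the numbers, gave 187 higher and 59 lower. It took the call from Ccdc39 and Shisa9 among the 30 called genes named and left the calls of the other 28. Fits added after seeing the data were the replicate block without T2 replicate 4 (162 and 47), without pair 1 (0 and 0, with 784 and 472 at an unadjusted p under 0.05), without pair 2 (338 and 214) and without pair 3 (443 and 210). All 30 called genes named kept their sign in all of these fits. Of those not called, Mtap2 ranged from -0.18 to 0.01 and Hes5 from -0.22 to 0.20 over the fits without 1 library, and the sign also turned for Mtap2 in the block without pair 2 (0.02), Bdnf in the block without pair 1 (-0.02) and Hes5 with libraries 1 and 2 only (0.01). The cause was not tested. Genes with under 10 reads at T1, such as Nrxn3 and Chac1, have folds of low precision.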

Other observations

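The 7 genes that fell all met the naming rule, so the called genes outside the naming rule were higher at T2, and those described here were chosen after their values were seen. Pcsk2, a proprotein convertase of secretory granules, went from 1.8, 1.58 and 1.7 CPM at T1 to 5.29 to 6.38 CPM at T2 (log2 fold change 1.79 ± 0.18, adjusted p = 0.0043). Svop, a transporter-like protein of synaptic vesicles, lay at 1.8 to 3.41 CPM and then at 8.5 to 10.4 CPM (1.75 ± 0.21, adjusted p = 0.011). Bzrap1, which binds RIM proteins at the active zone, went from 8.75, 16 and 3.77 CPM to 31.8 to 41.3 CPM (1.94 ± 0.36, adjusted p = 0.048). Cpeb1, a regulator of cytoplasmic polyadenylation, rose from 5.49, 6.4 and 8.03 CPM to 12.5 to 15.8 CPM (1.07 ± 0.16, adjusted p = 0.023), and Celf5, an RNA-binding protein, from 1.34 to 1.8 CPM to 3.02 to 5.2 CPM (1.47 ± 0.25, adjusted p = 0.04).

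The chemokine gene Cxcl10 had the largest log2 fold change of the genes that passed with the replicate block alone, 4.06 ± 0.99, with an adjusted p of 0.013 against 0.12. It measured 0.172, 0.0753 and 0.0608 CPM at T1 and 2.22, 1.49, 3.47 and 0.245 CPM at T2, so that T2 replicate 4, which has no T1 partner, lay close to the T1 libraries.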
